A study of Mus musculus with 8 samples.

Results

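The 8 mouse E2f genes, *E2f1* to *E2f8*, and the retinoblastoma genes *Rb1* and *Rbl1* were followed through the ac4C peak lists of female germline stem cells (FGSCs) and of differentiated female germ cells (Dif-FGCs). A peak belonged to the set when its list named one of these 10 genes, and 119 of 75481 peaks did, at 55 of 39860 loci. The 10 genes were among 11417 genes with a peak in any list. N4-acetylcytidine (ac4C) is an acetyl mark that the enzyme NAT10 places on cytidine in RNA, and acetylated RNA immunoprecipitation sequencing (acRIP-seq) finds the RNA fragments that an antibody to it pulls down.

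E2f proteins are transcription factors that set the pace of entry into S phase. E2f1, E2f2 and E2f3 are known as activators, E2f4 and E2f5 as repressors that work with pocket proteins, E2f6 as a repressor that works with Polycomb proteins, and E2f7 and E2f8 as repressors that bind without a dimerisation partner. The pocket proteins Rb1, Rbl1 (p107) and Rbl2 (p130) hold E2f factors in check until cyclin-dependent kinases phosphorylate them.

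The study's 8 libraries were an immunoprecipitated (IP) library and an input library from each of 2 FGSC replicates and 2 Dif-FGC replicates. Both groups are labelled as ovary and as FGSCs, one as the control group and the other as the differentiated group at day 3, and no mutant allele is given for either. By the study's methods, Dif-FGCs came from FGSCs kept with granulosa cells, retinoic acid, BMP4 and bFGF, so a Dif-FGC culture could hold other cells. Nothing in the labels says that the replicates were separate cultures, so differences between them may be technical.

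Each list gives the peaks of 1 IP library over its input, and their lengths were 22791 and 16290 peaks for FGSC 1 and FGSC 2 and 22480 and 13920 for Dif-FGC 1 and Dif-FGC 2. Read counts are not part of these lists, so depth is unknown, and a gene missing from a list may still carry ac4C or be expressed. Fewer cells that carry an RNA and less ac4C per RNA cannot be told apart in such libraries. Of 14 markers of germline stem and early germ cells, 8 had a peak in some list, with *Kit*, *Etv5* and *Zbtb16* in all 4 lists and the defining markers *Ddx4*, *Dazl* and *Pou5f1* in none. Of 10 meiosis markers, 2 had a peak, and *Stra8* and *Sycp3* had none.

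The stretches below are shown because peaks of *E2f1*, *E2f2*, *E2f3*, *E2f6* and *Rbl1* reached the first 50 transcribed bases of the gene in 3 or 4 of the lists, and each gives 30 of those bases. They are RefSeq sequences of the GRCm38.p6 assembly (mm10), written 5′ to 3′ on the strand of the gene, and capitals mark the longest run of CNN triplets. The study describes an ac4C motif of that form, written CNNCNNCN here.
E2f1: ggcctcggggCTCCGCCCCggggcgcgcat
E2f2: ggcattttCCGCGGgagatccgaatttggc
E2f3: ggcgcgtaaaccgtatccCTTCATtcattg
E2f6: agggaacctgagCGCCTCCGCggtcaccct
Rbl1: ttgtgggtagctCGCCGGgagggaaaagaa
The *E2f1* stretch lies on the minus strand at chr2:154569391-154569420 and the *E2f6* stretch on the plus strand at chr12:16810985-16811014, and each has a run of 3 triplets. Those of *E2f2* (plus strand, chr4:136172274-136172303), *E2f3* (minus strand, chr13:29986014-29986043) and *Rbl1* (minus strand, chr2:157204499-157204528) have runs of 2. Over the first 50 transcribed bases, read on the strand of the gene and with overlapping matches counted, CNNCNNCN occurred 2 times in *E2f1*, 2 times in *E2f6* and 0 times in *E2f2*, *E2f3* and *Rbl1*. The same letters were found in 16438 of 32851 starts of 50 bases of all genes, so a match is common. A contrast is *E2f8*, whose start was covered by a peak in Dif-FGC 1 alone although 60.0% of those 50 bases are C and CNNCNNCN occurs 9 times.
E2f8: ccgcggcccgccCGCCGGCCCCCCCCAgcc
That stretch lies at chr7:48881547-48881576 on the minus strand, and its run of 5 triplets is shared, at 5 or more, by 8.85% of all starts. Start sites were matched for 7 of the 10 genes, *E2f1*, *E2f2*, *E2f3*, *E2f6*, *E2f7*, *E2f8* and *Rbl1*.

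The first question was whether any of these genes was acetylated in only one of the cell states. A gene counted as FGSCs only, or as Dif-FGCs only, when both lists of one group held a peak and neither list of the other did. None of the 10 genes met either rule, while among all genes with a peak the FGSC rule was met by 5.25% and the Dif-FGC rule by 1.62%. *E2f1*, *E2f2*, *E2f3*, *E2f4*, *E2f6*, *E2f7*, *Rb1* and *Rbl1* had a peak in all 4 lists, 8 of 10 against 43.5% of all genes. The exceptions were *E2f5* and *E2f8*. *E2f5* had peaks in FGSC 1 and Dif-FGC 1, and *E2f8* had peaks in all lists but FGSC 2. Every member peak lay inside the RefSeq limits of the gene it was named for.

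Peaks of the 10 genes numbered 38 and 21 in FGSC 1 and FGSC 2 and 34 and 26 in Dif-FGC 1 and Dif-FGC 2. The longer lists, FGSC 1 and Dif-FGC 1, thus also held more of these peaks, and their part in the numbers below was not tested. *E2f7*, an atypical repressor of the family, had the most peaks over the 4 lists, with 11 and 3 in FGSC 1 and FGSC 2 and 8 and 6 in Dif-FGC 1 and Dif-FGC 2. In FGSC 2 alone, *E2f6* had more, with 4. The mean of *E2f7* in FGSCs was 7 ± 5.66 and in Dif-FGCs it was 7 ± 1.41 (SD, n = 2), so the FGSC lists lay further apart than the groups. Among genes with a peak, 1.26% had at least as many as *E2f7* in FGSC 1, but 24.4% in FGSC 2, and the shares were 3.89% and 5.46% for the Dif-FGC lists.

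**Figure D1:**
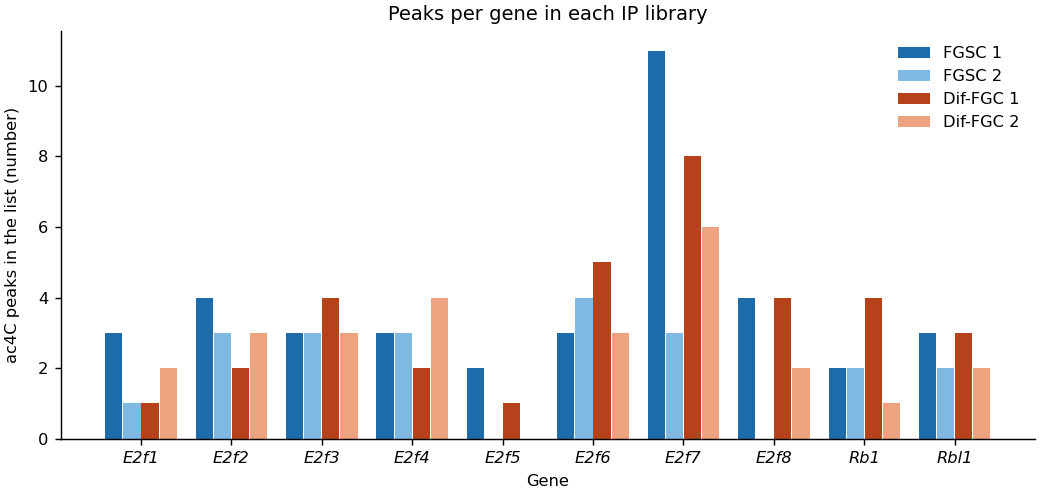
Number of ac4C peaks listed for each gene (y axis) in the 4 IP libraries (bars, 1 per library). *E2f7* has 11, 3, 8 and 6 peaks in FGSC 1, FGSC 2, Dif-FGC 1 and Dif-FGC 2, and *E2f5* and *E2f8* have none in FGSC 2.

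For the activators, *E2f1* had 3, 1, 1 and 2 peaks in FGSC 1, FGSC 2, Dif-FGC 1 and Dif-FGC 2. *E2f2* had 4, 3, 2 and 3 peaks in the same order, and *E2f3* had 3, 3, 4 and 3. Their groups overlapped or touched, with no gene separating FGSC from Dif-FGC lists. Among the repressors that use pocket proteins, *E2f4* had 3, 3, 2 and 4 peaks, and *E2f5* had 2, 0, 1 and 0. *E2f6* had 3, 4, 5 and 3 peaks, and *E2f8* had 4, 0, 4 and 2. Here too the values of both groups overlapped or touched. The pocket protein gene *Rb1* had 2, 2, 4 and 1 peaks, and *Rbl1*, its relative, had 3, 2, 3 and 2.

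The difference in mean peak number, Dif-FGC minus FGSC, lay between -1 for *E2f2* and 1 for *E2f8*. It was 0 for *E2f4*, *E2f7* and *Rbl1*. In exact two-sided permutation tests over the 4 libraries, p was 0.667 for *E2f2* and 1 for each of the other 9 genes. With 6 assignments the smallest p possible is 0.333, so this design could not call a difference of any size. A longer genomic span did not always go with more peaks. *Rb1* spans 133.0 kb and had 9 peaks over the 4 lists, whereas *E2f4* spans 7.71 kb and had 12, and *E2f7* spans 41.9 kb and had 28. Transcript length was not examined.

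The second question was whether the same places on these RNAs carried the peaks. A locus joined all peaks of the 4 lists with 1 bp or more in common. Of the 55 loci, 13 were in all 4 lists, or 23.6% against 15.5% of all loci, and 27 were in 1 list, or 49.1% against 54.7%. Of these 27, 12 were in FGSC 1, 10 in Dif-FGC 1, 3 in Dif-FGC 2 and 2 in FGSC 2. No locus was in FGSCs only, against 3.61% of all loci, and 1 was in Dif-FGCs only, against 3.65%. These counts rest on single libraries: without FGSC 2, 12 loci were in FGSCs only, and without Dif-FGC 2, 11 were in Dif-FGCs only. The locus in Dif-FGCs only, which is lost among peaks with a fold at or above the list median, lies in *E2f2* at chr4:136181286-136181444, with the same limits in both Dif-FGC lists. Its fold over input, the list's own ratio, was 15.05 in Dif-FGC 1, which placed it at 22.8% of that list counted from the strongest peak, and 6.64 in Dif-FGC 2, at 59.7%.

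**Figure D2:**
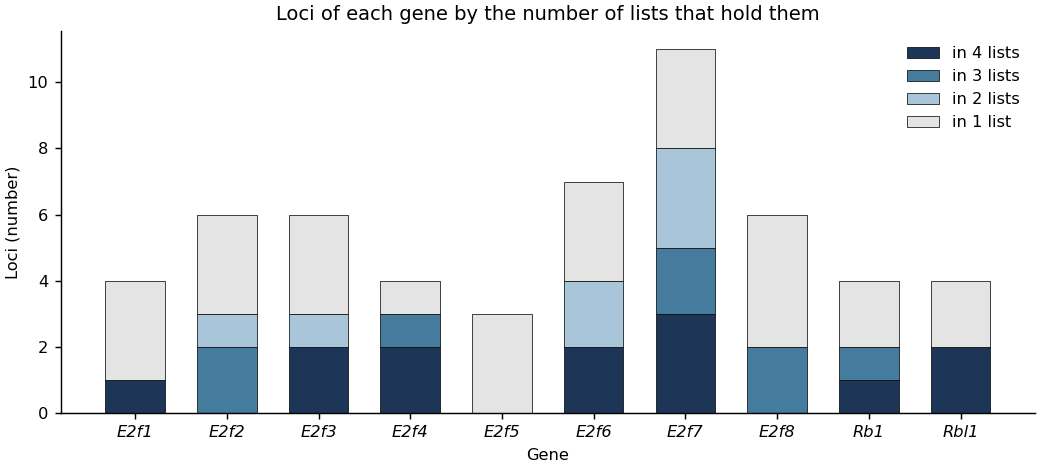
Number of loci of each gene (y axis), split by how many of the 4 lists hold them (shading). *E2f7* has 11 loci, 3 of them in all 4 lists, and *E2f2*, *E2f5* and *E2f8* have no locus in all 4.

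The 13 recurrent loci were spread over 7 genes. *E2f7* had 3, *E2f3*, *E2f4*, *E2f6* and *Rbl1* had 2 each, and *E2f1* and *Rb1* had 1 each. Limits were identical in all 4 lists at 3 of the 13, or 23.1%, against 43.9% of all such loci. These were both recurrent loci of *E2f4* and the start locus of *Rbl1*. *E2f5* and *E2f8* had none, and *E2f2* had a peak in every list but no locus shared by all of them.

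Since fold is a value of the peak caller and its scale differs between lists, peaks were compared by rank within their own list, as a percent of the list where values near 0 are the strongest. By the mean rank of the strongest peak, 3 members led, *E2f3* at 7.87%, *E2f4* at 8.65% and *E2f6* at 9.18%. *E2f1* followed at 16.4%, *Rb1* at 16.9%, *Rbl1* and *E2f7* at 19.9% each and *E2f2* at 23.7%. Ranked against the 4961 genes with a peak in all 4 lists, these means stood at 16.6% for *E2f3*, 18.3% for *E2f4*, 19.4% for *E2f6* and 48.5% for *E2f2*. Ranked by score instead, *E2f4* led at 0.352%, *E2f3* stood at 5.26%, *E2f6* at 16.1% and *Rb1* at 32.8%, so the order depends on the measure. Tied peaks took the best rank of their tie, and 1051 to 2734 peaks a list shared the *E2f4* score of 3100. The value of 0.352% thus overstates its standing. The *E2f3* value rests on the same tie in all lists but FGSC 1. By fold, *E2f3*, *E2f4* and *E2f6* lay within 1 SD over the lists of each other.

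**Figure D3:**
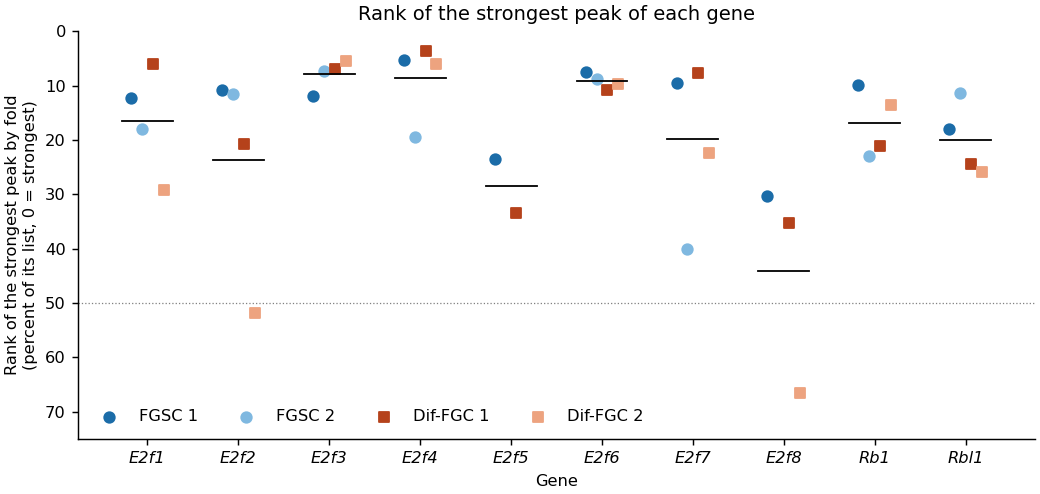
Rank of the strongest peak of each gene within its list (y axis, percent of the list, 0 at the top is the strongest), with circles for FGSC and squares for Dif-FGC libraries and a bar at the mean. *E2f3*, *E2f4* and *E2f6* stay within the top 19.5% of every list, while *E2f2*, *E2f7* and *E2f8* spread widely.

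*E2f3*, an activator that is needed for normal proliferation, had its strongest peak at chr13:29985300-29986063 in all 4 lists. Its fold was 34.52 and 46.96 in FGSC 1 and FGSC 2 and 39.81 and 45.61 in Dif-FGC 1 and Dif-FGC 2, at 11.9%, 7.25%, 6.91% and 5.41% of the lists. As percents, both Dif-FGC ranks stood above both FGSC ranks by a small margin. By rank number, not divided by list length, the groups overlapped, at 2715 and 1181 in FGSCs against 1553 and 753 in Dif-FGCs. Score could not order the groups here, since this peak had the same score, 3100, in FGSC 2, Dif-FGC 1 and Dif-FGC 2. In 3 lists this peak began exactly at the annotated start site, the one that gives the *E2f3* stretch shown above. In FGSC 1 it was shorter, 405 bp against 764 bp. A further recurrent peak of *E2f3*, at chr13:29920114-29920225 and 64166 bp from the nearest annotated start, had folds of 15.75, 11.79, 31.1 and 11.5 in the same order. It was strongest in Dif-FGC 1, at 9.57%, and stood at 30.7% to 33.2% in the other lists.

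*E2f4*, the main repressor E2f of resting cells, had the member peak with the highest fold in FGSC 1 and in Dif-FGC 1, though not in the other lists. It covered chr8:105297663-105297875, the lower end of the gene's RefSeq limits, with identical limits in the 4 lists. The fold was 60.45 and 18.42 in FGSC 1 and FGSC 2 and 63.78 and 42.28 in Dif-FGC 1 and Dif-FGC 2. FGSC 2 stood apart at 19.5% of its list, and the other 3 lay between 3.66% and 6.1%. The caller's score, 10 times the negative log10 of the p-value, was 3100 for this peak in every list, a value that 1051 to 2734 peaks a list shared. *E2f4* had the only member locus with a score of at least 3100 in all 4 lists, a property of 11.0% of recurrent loci. The neighbouring locus chr8:105300319-105300616 also recurred with identical limits, at folds of 4.65, 7.04, 10.89 and 15.4. Both Dif-FGC values ranked above both FGSC values there, 32.7% and 24.0% against 89.7% and 48.8%, and FGSC 1 was near the foot of its list. How many of all recurrent loci do so is not given here.

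*E2f6*, the Polycomb-linked repressor, had its strongest peak at chr12:16810965-16811315. Its fold was 48.22 and 39.96 in FGSC 1 and FGSC 2 and 28.27 and 30.53 in Dif-FGC 1 and Dif-FGC 2. In all 4 lists the peak began at the annotated start, and its ranks ran from 7.42% to 10.9%, the narrowest range of the members in all 4 lists. The other recurrent peak, chr12:16818841-16819057, had folds of 32.78, 19.18, 20.06 and 7.68, with Dif-FGC 2 lowest at 51.5% of its list.

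*E2f1*, the activator best known as a partner of Rb1, had 1 recurrent locus, chr2:154569067-154569892. Its fold was 33.34 and 19.98 in FGSC 1 and FGSC 2 and 43.66 and 12.89 in Dif-FGC 1 and Dif-FGC 2, so the Dif-FGC lists held both the highest and the lowest value. The peaks of FGSC 1 and Dif-FGC 2 had the same limits, 154569067 to 154569720, and crossed the annotated start at 154569426. That of Dif-FGC 1 ran from 154569489 to 154569892, wholly upstream of that start and up to the RefSeq limit of the gene. The other 3 loci of *E2f1* were each in 1 list and ranked between 70.7% and 93.6%.

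*E2f2* was the activator whose strongest peak by fold was not at the same locus in all lists. The locus at its start, chr4:136172274-136173038, had a fold of 36.91 in FGSC 1 and 30.52 in FGSC 2, at 10.8% and 11.5% of the lists. In Dif-FGC 2 it was listed at 7.35 and 53.9%, and Dif-FGC 1 had no peak there. In both Dif-FGC lists the strongest peak was instead at chr4:136184423-136184537, with folds of 16.35 and 7.63, and FGSC 1 had a peak there at 8.93 while FGSC 2 had none. In Dif-FGC 2 it was nearly level with the start locus, and by score the peak at chr4:136181286-136181444 led there. The groups did not overlap in the rank of the strongest *E2f2* peak, 10.8% and 11.5% in FGSCs against 20.7% and 51.8% in Dif-FGCs.

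Such a separation was not particular to *E2f2*. Of the 8 members in all 4 lists, 3 ranked higher in both FGSC lists (*E2f2*, *E2f6* and *Rbl1*), where 20.1% of all genes in the 4 lists did, and 1 ranked higher in both Dif-FGC lists (*E2f3*), where 17.3% did. When peaks were ranked by score, *E2f2* and *Rbl1* stayed apart but *E2f6* overlapped, at 14.2% and 16.6% in FGSCs against 16.4% and 17.3% in Dif-FGCs. For *E2f3*, FGSC 2 and both Dif-FGC lists had the same score, so score could not order them. By rank number, not divided by list length, *E2f2* stayed apart, at 2460 and 1879 in FGSCs against 4644 and 7208 in Dif-FGCs. *E2f3*, *E2f6* and *Rbl1* overlapped by that measure, so their separation depends on the unequal list lengths. The strongest peak sat at the same locus in all 4 lists for 6 of the 8, against 51.1% of all genes in the 4 lists. *E2f2* and *E2f7* were the exceptions.

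*E2f7* had 11 loci over 41.9 kb. Those in all 4 lists were chr10:110754081-110754837, chr10:110778819-110779302 and chr10:110782198-110782619. The first had folds of 19.62, 8.4, 17.79 and 16.15 in FGSC 1, FGSC 2, Dif-FGC 1 and Dif-FGC 2. Its ranks were 24.7% and 42.3% in FGSCs against 18.7% and 22.5% in Dif-FGCs, without overlap. At the last locus FGSC 1 had a pair of peaks, with folds of 11.45 and 4.96 at 43.8% and 87.5% of its list, and FGSC 2 had 1 with a fold of 8.86 at 40.0%. In Dif-FGC 1 and Dif-FGC 2 the folds were 36.93 and 5.46, at 7.71% and 71.3%, so the Dif-FGC lists lay far apart there. The strongest *E2f7* peak of FGSC 1, at 40.48, lay 29 bp after the annotated start at chr10:110745468-110745679 and was in no other list. A locus 880 bp after the start, chr10:110746319-110746424, was listed in FGSC 1, Dif-FGC 1 and Dif-FGC 2 at 15.0, 30.65 and 9.9. FGSC 2 had no peak at 8 of the 11 loci.

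*E2f8*, the closest relative of *E2f7*, had no peak in FGSC 2. The other 3 lists shared the loci chr7:48870691-48871216 and chr7:48872086-48872286. The latter had a fold of 16.25 in FGSC 1 against 8.47 and 5.92 in the Dif-FGC lists, at 30.3%, 41.9% and 66.6%. At the former the order was the other way, with 4.57 in FGSC 1 against 10.04 and 5.31 in the Dif-FGC lists, at 90.4%, 35.3% and 72.9%. *E2f5* had the weakest support, with peaks of fold 20.24 and 2.94 in FGSC 1 and 10.59 in Dif-FGC 1, at 3 different places, the last at chr3:14578671-14579023. No *E2f5* peak overlapped another, and the gene had none in FGSC 2 or Dif-FGC 2.

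**Figure D4:**
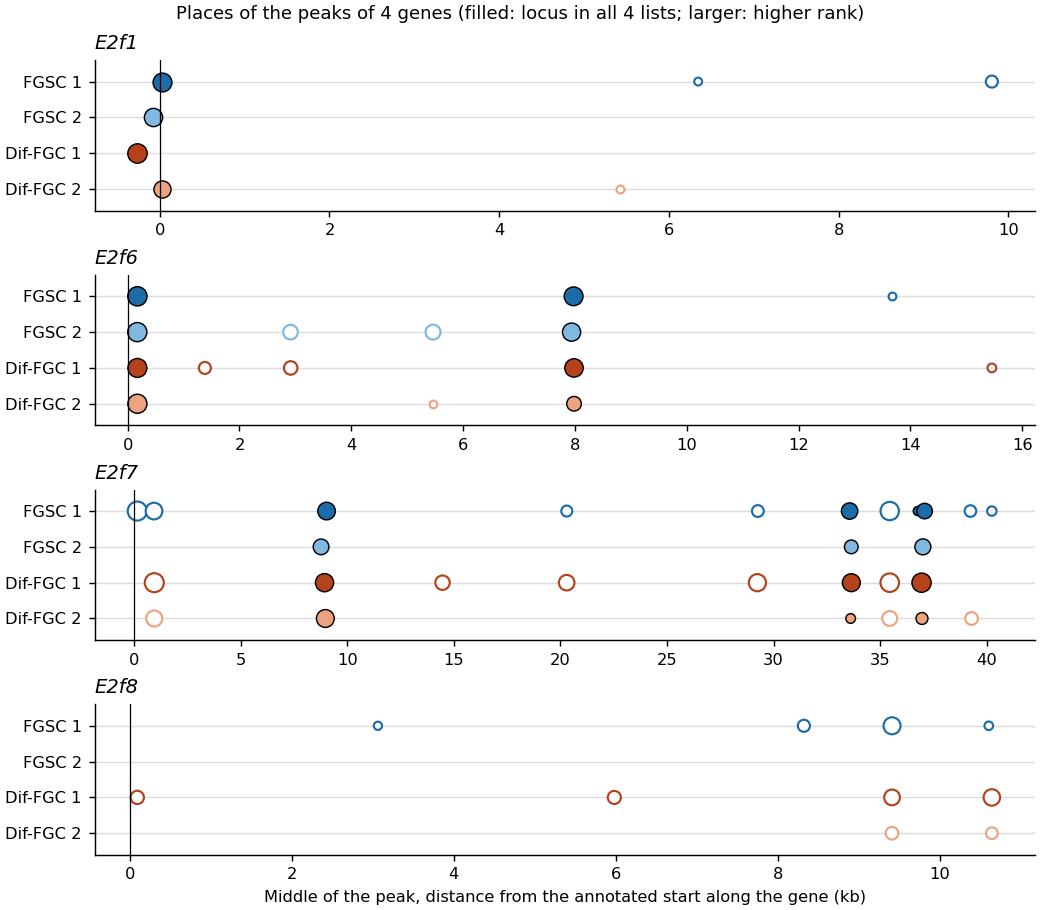
Places of the peaks of *E2f1*, *E2f6*, *E2f7* and *E2f8*, each point the middle of a peak on a scale of kb from the annotated start (x axis), with a row for each IP library. Filled points are loci in all 4 lists, larger points rank higher in their list. The recurrent *E2f1* locus and the strongest *E2f6* locus are at the start, the 3 recurrent *E2f7* loci lie further in, and *E2f8* has none.

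*Rb1*, the retinoblastoma tumour suppressor, had its strongest peak at chr14:73325523-73325822, 129 bp inside the upper RefSeq limit of the gene. Its fold was 39.29 and 15.73 in FGSC 1 and FGSC 2 and 15.98 and 24.17 in Dif-FGC 1 and Dif-FGC 2. The ranks of the groups overlapped, 9.89% and 22.9% in FGSCs against 21.2% and 13.5% in Dif-FGCs. The other 3 loci of *Rb1* were at chr14:73322017-73322143, in 3 lists, and at chr14:73199182-73199324 and chr14:73211699-73211749, in Dif-FGC 1 alone near the foot of that list.

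*Rbl1* had its strongest peak exactly at its annotated start, chr2:157204300-157204534, with the same limits in all lists. The fold was 25.4 and 31.12 in FGSC 1 and FGSC 2 and 14.08 and 14.27 in Dif-FGC 1 and Dif-FGC 2. As a percent of the list its rank was 17.9% and 11.4% in FGSCs and 24.5% and 25.9% in Dif-FGCs, so the groups did not overlap. By rank number, not divided by list length, they did, at 4072 and 1851 against 5511 and 3609. At the weaker recurrent locus, chr2:157199416-157199549, the ranks were 60.5% and 35.4% in FGSCs and 85.3% and 92.3% in Dif-FGCs, again without overlap, from folds of 8.28, 10.13, 3.47 and 3.57. There too the rank numbers overlapped, at 13794 and 5759 in FGSCs against 19186 and 12852 in Dif-FGCs. The separations by percent were noticed in the values and were not tested, since the lists hold no reads. The share of all recurrent loci that separate in this way is not given here. Other member loci separated the other way, as at chr8:105300319-105300616 in *E2f4* and chr10:110754081-110754837 in *E2f7*.

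Recurrence went with rank, among the members as among all peaks. In FGSC 1 the median rank was 21.3% for the 14 member peaks at loci in all 4 lists and 87.7% for the 12 at loci in that list alone, and over all peaks it was 22.6% and 67.5%. In Dif-FGC 1 the member medians were 16.2% for 13 peaks and 67.1% for 10, against 19.5% and 71.0% over all peaks. The members as a whole were not at the top of the lists: the median rank of their peaks was 49.4% and 40.0% in FGSC 1 and FGSC 2 and 33.1% and 51.7% in Dif-FGC 1 and Dif-FGC 2. Near the start of the RNA, 4 of the 10 recurrent loci of the members with a known start lay within the first 1000 bp of the gene, or 40.0%, against 48.4% for all genes, and 2 of 21 in 1 list did, against 13.2%. For loci in 2 or 3 lists the shares were 30.8% and 26.3%, and for all loci 22.7% and 22.6%.

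The genes with a pattern most like *E2f3*, by the mean absolute difference in the rank of the strongest peak over the 4 lists, were *Rrp12* at 0.649 percentage points, *Erf* at 1.1 and *Lrp10* at 1.32. *Rrp12* serves ribosome assembly, *Erf* is an Ets-family repressor and *Lrp10* a receptor of the LDL receptor family.

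Around the E2f and Rb proteins, 90 further genes were taken from lists of their partners, kinases, inhibitors, targets and turnover. Of these, 80 had a peak, 44 of them in all 4 lists (55.0% of those with a peak), 7 in FGSCs only (8.75%) and none at all in Dif-FGCs only, where the shares over all genes are the 43.5%, 5.25% and 1.62% given above. The remaining pocket protein gene, *Rbl2*, named here after its values were seen, had folds of 27.84 in FGSC 1, 6.75 in FGSC 2 and 16.07 in Dif-FGC 2 and no peak in Dif-FGC 1. The dimerisation partners *Tfdp1* and *Tfdp2*, which most E2f proteins need to bind DNA, were both in all 4 lists. *Tfdp2* stood at 32.74, 3.46, 9.29 and 14.7 and *Tfdp1* at 16.92, 6.12, 4.52 and 4.3 in FGSC 1, FGSC 2, Dif-FGC 1 and Dif-FGC 2.

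**Figure D5:**
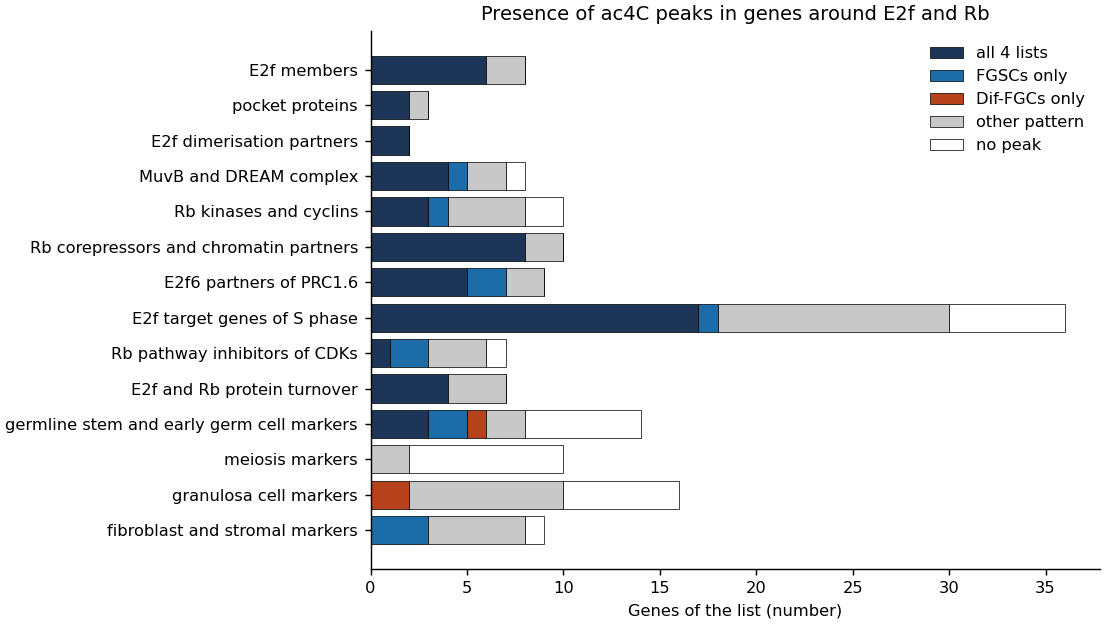
Genes of each list (x axis, number) by where they had a peak: all 4 lists, FGSCs only, Dif-FGCs only, another pattern, or none. Of the E2f genes 6 of 8 are in all 4 lists, and the 7 genes around them in FGSCs only are inhibitors, a cyclin, partners and a target.

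Of 8 genes of the MuvB core and of factors that bind or regulate it, 7 had a peak. In all 4 lists were 4 of these 7 (57.1%), most of them outside the core. With E2f4 and pocket proteins that core forms the DREAM complex, which silences cell cycle genes. *Lin9*, a MuvB subunit, was in FGSCs only, with folds of 7.0 and 5.66 at 69.5% and 58.9% of the lists. Of the 10 corepressors and chromatin partners of Rb, 8 were in all 4 lists, led by *Rbbp7*, a histone-binding protein, at a mean rank of 1.66%, and *Arid4a*, an Rb-binding protein, at 5.93%. Of the 9 partners of E2f6 in the Polycomb complex PRC1.6, 5 were in all 4 lists and 2 in FGSCs only. *Cbx3*, a heterochromatin protein, had folds of 17.24 and 5.1, at 28.5% and 64.3% of the lists. *Mga*, the scaffold of that complex, had 6.43 and 2.67, at 74.1% and 95.5%.

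Upstream of Rb, 8 of 10 kinases and cyclins had a peak. In all 4 lists were 3 of these 8, or 37.5% against 43.5% of all genes with a peak. *Ccnd2*, a D-type cyclin, was in FGSCs only at folds of 5.91 and 3.8, low in the lists at 78.9% and 80.0%. Of 7 inhibitors of cyclin-dependent kinases, 6 had a peak, with 1 of these in all 4 lists (16.7%) and 2 in FGSCs only. *Cdkn2a*, which encodes an inhibitor of Cdk4 and Cdk6, had 3 peaks in FGSC 1 and 2 in FGSC 2. Their best folds were 38.1 and 16.36, at 10.3% and 21.9% of the lists. *Cdkn1a*, a target of p53 that blocks Cdk2, had 1 peak in each, with folds of 19.37 and 15.73 at 24.9% and 22.9%. Downstream, 30 of 36 E2f target genes of S phase had a peak and 17 were in all 4 lists. *Brca1*, a DNA repair gene, was in FGSCs only, with folds of 5.95 and 4.92 at 77.4% and 66.5%. Of 7 genes of E2f and Rb protein turnover, 4 were in all 4 lists, with *Fzr1* at a mean rank of 6.54% and *Fbxw7*, which directs cyclin E to breakdown, at 16.7%.

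Markers of other cells were uneven between the lists as well. The 9 fibroblast and stromal markers summed to 23 and 14 peaks in the FGSC lists and 5 and 2 in the Dif-FGC lists, with *Twist1*, *Col1a2* and *Thy1* in FGSCs only and *Lum* in no list, while *Vim* went the other way with 0, 1, 2 and 2 peaks. The 16 granulosa cell markers summed to 9 and 5 peaks in FGSCs and 16 and 4 in Dif-FGCs, so these sums did not separate the groups. Of these markers, 3 and 2 had a peak in FGSC 1 and FGSC 2, and 8 and 3 in Dif-FGC 1 and Dif-FGC 2. *Nr5a1* and *Nr5a2* were in Dif-FGCs only. *Amhr2*, *Inhbb* and *Hsd17b1* had a peak in Dif-FGC 1 alone, and *Inha* had peaks in Dif-FGC 2 alone. *Gata4* had 0, 2, 4 and 0 peaks. *Inhba* (3, 3, 2 and 0 peaks), *Fst* (3, 0, 0 and 0) and *Kitl* (3, 0, 1 and 0) had more in FGSCs. The defining markers *Foxl2*, *Fshr* and *Amh* had none. Among germline markers, *Ifitm3* and *Thy1* were in FGSCs only and *Itga6* in Dif-FGCs only. Their part in the values of the E2f and Rb genes was not tested.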

How the data were processed

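Per the labels and the study's methods, ac4C was immunoprecipitated from rRNA-depleted RNA fragments of FGSCs and Dif-FGCs, in 2 replicates a group. The submitters' processing notes name cutadapt, HISAT2, MACS2 and mm10, without versions, and parameters are not given in the sources used here. The authors' fold is an IP to input ratio, the deposited score is 10 times the negative log10 of the p-value, the deposited FDR is a percent, and peak length is in bp. The form of the columns resembles MACS before MACS2, so their exact definition is unsettled. The FDR of member peaks was 51.39% to 100%, and 0 member peaks were at 5% or less, so no peak was filtered on it. High values were not particular to the members. Over all peaks the median FDR was 68.63% and 68.59% in FGSC 1 and FGSC 2 and 59.91% and 100.0% in Dif-FGC 1 and Dif-FGC 2. How many of all peaks were at 5% or less is not given here.

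Peaks were ranked by fold within each list and merged to loci at an overlap of at least 1 bp. This step recovered all of 20000 simulated loci, but the peaks simulated for a locus always overlapped and those of different loci never did. That checks the code, not the joining of separate peaks by a longer one, as at the *E2f2* start. No count test was possible without reads, and the overlap ignored strand. Peak numbers were compared by exact permutation of 2 against 2 libraries. Named genes were all members, from each of the 14 lists at most 4 genes in one group only by mean rank, else the best 2 in all lists, and the 3 genes most like the best-ranked member. A gene was sought under an older symbol where needed. The members and lists were chosen with earlier results of these data known. Alternatives were equal list lengths, a fold minimum, another presence rule, overlap or assignment, covered bases, score ranks, leaving out each library, and the replicate number as a block. Python 3.11.15, pandas 2.3.3 and scipy 1.17.1 were used.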

Additional observations from a re-analysis of the deposited data

How the results depend on the processing

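The depth behind a peak is unknown and each group has 2 lists of unequal length, so absence from a list is weak evidence. The 8 genes in all 4 lists stayed 8 when lists were cut to 13920 peaks and were 7 with folds at or above the list median. Leaving out FGSC 1 placed 1 gene, *E2f8*, in Dif-FGCs only, and leaving out other libraries placed 0.

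Loci moved more. When 1 list sufficed for presence in a group, FGSCs alone held 14 loci, Dif-FGCs alone 14 and both groups 27. With folds at or above the list median the numbers were 1, 0 and 8, and with equal list lengths 3 were in Dif-FGCs only. Leaving out 1 library gave 1 to 12 loci in FGSCs only (12 without FGSC 2, which has the shorter FGSC list) and 1 to 11 in Dif-FGCs only (11 without Dif-FGC 2, and 6 and 4 when FGSC 1 or Dif-FGC 1 was left out). An overlap of 50% of the shorter peak left the 13 recurrent loci at 13.

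Peak numbers were higher in FGSCs for 3 members and in Dif-FGCs for 4, and by covered bases for 8 in Dif-FGCs. Leaving out 1 library gave 1 to 6 members higher in FGSCs and 1 to 7 in Dif-FGCs. The difference turned to 0.5 for *E2f1* and -0.5 for *Rb1* at equal list lengths, to -1 for *E2f6* and -0.5 for *Rb1* with folds at or above the median, and to 104 and 52 bp for *E2f2* and *E2f5* by covered bases. Leaving out 1 library gave differences of -1.5 to 0.5 for *E2f1* and for *E2f5*, higher in Dif-FGCs without FGSC 1, of -0.5 to 1.5 for *E2f6* and -1 to 2 for *Rb1*, lower without Dif-FGC 1, and of -1 to 3 for *E2f8*, lower without FGSC 2. Ranked by score, 5 rather than 8 members had a mean rank in the top 25%. By fold such a mean is common, since *E2f2*, at 23.7%, stood at 48.5% of the 4961 genes in all 4 lists. No such share by score is given here. Of 20 mean ranks by score or at equal list lengths, 9 moved by more than the SD over lists. At equal list lengths a rise is built in and is no sign of instability. The cut leaves the rank of a strong peak nearly unchanged and shortens the list of which it is a percent. The move of *E2f4* by score rests on tied scores. Taken at 1 locus shared by all lists, an alternative chosen after seeing the data, *E2f7* stood at 27.0% in place of 19.9%. The cause of the other moves was not tested.

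With the replicate number as a block, 3 members were higher in FGSCs and 4 in Dif-FGCs, as without it, and the smallest p of 2 paired differences is 0.5. Nothing in the labels pairs the libraries, and over 11417 genes the replicate differences of the groups correlated at 0.128.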
